A study of Mus musculus with 48 samples.

Results

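Integrins are cell surface receptors made of 1 alpha and 1 beta chain, and laminins are basement membrane proteins made of an alpha, a beta and a gamma chain. The genes of these chains were followed through the differentiation of the mouse myoblast line C2C12, whose cells stop dividing on a drop in serum and then join into multinucleate myotubes. Members were defined by a rule on symbols, which was set with earlier results of these data known. It took every gene whose symbol in the platform's annotation is an integrin alpha or beta chain, or a laminin alpha, beta or gamma chain. For each gene 1 probe set was used, the one with the highest mean over the 48 arrays. This gave 35 of the 18193 genes measured: 16 integrin alpha chains, 9 integrin beta chains and 10 laminin chains.

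Each integrin alpha chain pairs with 1 or a few beta chains, and the pair sets what the receptor binds. Itgb1 is the beta chain of most laminin, collagen and fibronectin receptors, while Itgb5, Itgb6 and Itgb8 pair with Itgav and bind matrix proteins or latent TGF-beta through an arginine-glycine-aspartate motif. In adult skeletal muscle the main laminin-binding integrin pairs Itga7 with Itgb1, and its ligand is the laminin built from Lama2. Loss of Itga7 or of Lama2 causes muscle disease in mice and in people. Myoblasts meet a fibronectin-rich matrix while they proliferate, and a laminin-rich basement membrane surrounds the fibre they form.

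RNA of these cells was read on 48 Affymetrix MOE430v2 arrays, in 16 groups of 3. In growth medium with 20% fetal bovine serum, cells were taken 24 h before the change of medium and at its start (0 h). The 12 times in medium with 2% horse serum were 0.5, 1, 1.5, 2, 3, 6, 9, 12, 24, 48, 96 and 144 h. A further pair of groups received cycloheximide, which blocks protein synthesis, at 50 µM from 1 h ahead of the change, and was taken 1 h and 3 h after it. All groups are the same cell line, with no genetic modification named, and the replicates came from successive passages, so p values measure the spread between cultures of 1 line. Among the samples analysed here none was in growth medium after 0 h and none had cycloheximide at 0 h, so medium and time cannot be told apart in any comparison with 0 h. These comparisons share the same 3 arrays at 0 h.

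The values are log2 signals of probe sets, and a difference of 1 is a 2-fold change. Because probe sets differ in brightness, levels were compared between groups and not between genes. Myog, a transcription factor of early muscle differentiation, rose from 5.64 at 24 h before the change to 10.15 at 0 h and 12.65 at 24 h, and Ckm, the muscle creatine kinase, from 5.50 at 0 h to 11.16 at 144 h. At 0 h the Myog value was 11.42 in replicate 1 and 9.32 and 9.71 in replicates 2 and 3. All 10 muscle markers reached a group mean of 5 or more, a level used here to separate low from measurable genes. Under it stayed 6 of 6 endothelial markers (including Pecam1 and Cdh5) and 6 of 9 leukocyte markers (including Ptprc). The other leukocyte markers, Cd14, Cd3e and Laptm5, had highest group means of 6.89, 5.67 and 5.58. Of 4 smooth muscle markers 1 stayed under it (Myh11), and Acta2, Tagln and Cnn1 reached 13.7, 12.05 and 7.27. Of 3 adipocyte markers 2 stayed under it, and Pparg reached 6.1. Array medians were at most 4.16, except on the 6 cycloheximide arrays, where they ran from 4.20 to 4.24.

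Promoters are shown for a selection of the members found in the set of RefSeq promoters used here. The sequence just before the start site is where a reader would look for regulatory motifs. Matched by symbol, this set (build GRCm38.p6) held promoters for 23 of the 35 members, 26 in all. The 250 bases before each start are used here. Itga7 and Itga6 were among the members not found in this set. All 26 promoters were counted, and those of most members, among them Itga3, Itgb1 and Itga10, are not shown. Capitals mark matches on either strand to the E-box CANNTG, the general site of muscle transcription factors of the Myod1 family, or to the AP-1 site TGANTCA. The letters CAGCTG, a form of E-box that these factors favour, are counted among the E-boxes.
Itgb5 promoter, chr16:33829415-33829664, plus strand: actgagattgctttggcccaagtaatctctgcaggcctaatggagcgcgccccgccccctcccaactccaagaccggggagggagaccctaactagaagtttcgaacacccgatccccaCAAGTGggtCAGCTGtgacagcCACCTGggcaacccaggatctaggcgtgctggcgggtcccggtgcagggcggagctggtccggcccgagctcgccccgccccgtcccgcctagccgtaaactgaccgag
Itgb6 promoter of the upstream start, chr2:60722604-60722853, minus strand: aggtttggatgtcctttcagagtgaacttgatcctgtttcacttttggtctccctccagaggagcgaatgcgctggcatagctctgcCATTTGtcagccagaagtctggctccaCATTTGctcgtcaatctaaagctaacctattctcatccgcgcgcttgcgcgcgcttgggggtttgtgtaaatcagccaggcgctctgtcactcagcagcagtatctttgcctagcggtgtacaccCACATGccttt
Itgb6 promoter of the downstream start, chr2:60673694-60673943, minus strand: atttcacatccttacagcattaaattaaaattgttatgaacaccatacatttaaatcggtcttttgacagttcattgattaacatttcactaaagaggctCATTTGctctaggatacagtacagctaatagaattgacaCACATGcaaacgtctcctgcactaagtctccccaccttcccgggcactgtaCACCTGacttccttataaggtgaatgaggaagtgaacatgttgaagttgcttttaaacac
Lamb3 promoter of the upstream start, chr1:193301744-193301993, plus strand: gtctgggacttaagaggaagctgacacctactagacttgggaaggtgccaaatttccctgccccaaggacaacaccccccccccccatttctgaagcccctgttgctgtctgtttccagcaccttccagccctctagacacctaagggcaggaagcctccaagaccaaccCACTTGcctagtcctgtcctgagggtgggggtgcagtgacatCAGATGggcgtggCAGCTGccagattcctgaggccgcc
Lama2 promoter, chr10:27616943-27617192, minus strand: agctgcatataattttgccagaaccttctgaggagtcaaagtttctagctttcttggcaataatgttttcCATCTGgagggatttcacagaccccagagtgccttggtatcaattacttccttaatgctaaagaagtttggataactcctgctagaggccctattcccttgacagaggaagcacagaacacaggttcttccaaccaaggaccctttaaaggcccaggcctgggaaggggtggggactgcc
Itgav promoter, chr2:83724147-83724396, plus strand: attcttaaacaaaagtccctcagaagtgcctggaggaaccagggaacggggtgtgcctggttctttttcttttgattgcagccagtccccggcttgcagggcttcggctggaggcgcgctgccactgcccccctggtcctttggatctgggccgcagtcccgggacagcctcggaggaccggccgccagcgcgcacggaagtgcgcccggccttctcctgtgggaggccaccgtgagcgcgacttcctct
Itga5 promoter, chr15:103366792-103367041, minus strand: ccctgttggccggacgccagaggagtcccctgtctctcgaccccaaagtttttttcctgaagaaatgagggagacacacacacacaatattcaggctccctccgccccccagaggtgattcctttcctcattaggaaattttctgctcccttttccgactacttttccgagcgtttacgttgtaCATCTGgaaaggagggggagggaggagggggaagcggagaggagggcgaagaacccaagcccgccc

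The Itgb5 promoter held 3 E-boxes within its 250 bases, the middle one with the letters CAGCTG, and the Lamb3 promoter shown held 3, the one nearest the start with those letters. The promoter of the downstream Lamb3 start held 1 E-box, not CAGCTG. Each Itgb6 promoter held 3 E-boxes, none of them CAGCTG. The Itga5 and Lama2 promoters held 1 each and the Itgav promoter none. An E-box was present in 21 of the 26 member promoters (80.8%) and in 66.2% of all 32851 promoters of that length. CAGCTG was present in 7 of 26 (26.9%) against 13.0% of all, and the AP-1 site in 1 of 26 (3.85%) against 6.75%. These matches describe letters and were not tested as binding sites.

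Over 0 h and the 12 times in low serum, 16 of the 35 genes (45.7%) varied, beside 38.2% of all genes. The test was a moderated F-test of the 12 differences from 0 h. The members that moved did so mainly from 24 h on, and in opposite directions. The laminin receptor chain Itga7 and the Itgav partners Itgb5 and Itgb6 ended the course higher than at 0 h, whereas Itgav itself, Itga3 and Itgb1 ended it lower. The median member hardly moved: at 144 h it lay 0.05 above 0 h, beside 0.04 for all genes. In these bulk samples a change in RNA per cell and a change in the kinds of cell present cannot be told apart.

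**Figure D1:**
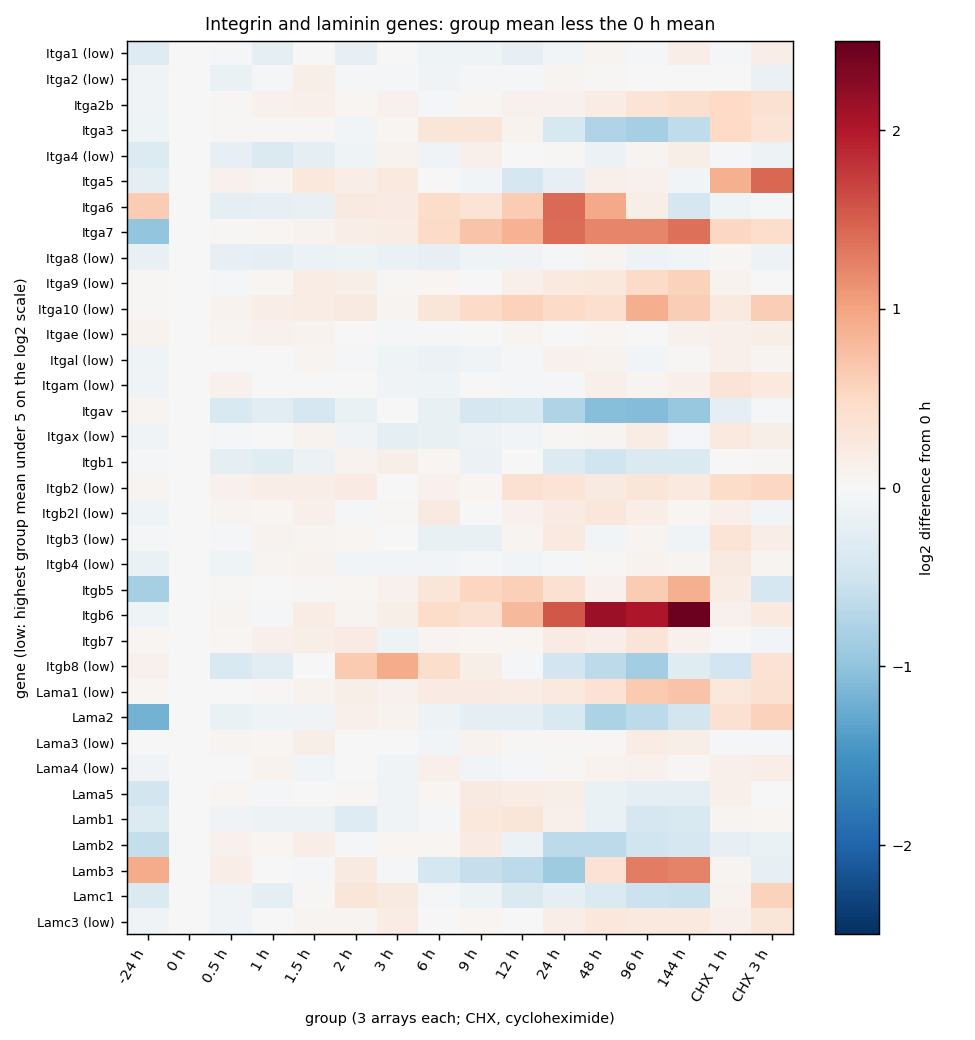
Mean log2 difference from 0 h for each of the 35 integrin and laminin genes (rows) in each of the 16 groups of 3 arrays (columns; CHX, cycloheximide), with genes whose highest group mean was under 5 marked low. The darkest red cells are those of Itgb6 from 48 h to 144 h, and the bluest cells of the late times are those of Itgav.

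By number, members called at an adjusted p under 0.05 in limma were few in the first hours and more frequent later. None was called at 0.5, 1, 1.5, 2, 3 or 6 h against 0 h, beside 0.0385% to 0.517% of all genes. Between 0 and 4 members had an unadjusted p under 0.05 at these times. At 9 h 2 were called, Itga7 and Itgb5, beside 1.36% of all genes, and at 12 h 3, with Itga10 added, beside 2.82%. Over all times up to 12 h this makes 3 of 35 members, against 3.96% of all genes, both in the fit without a replicate block. For the fit with that block no share of all genes is given here, so its count stands without a background. With the replicate number as a block 6 members were called in these early comparisons, with Itga6 (0.64, adjusted p = 0.00572), Itgb6 (0.82, adjusted p = 0.0166) and Itgb2 (0.37, adjusted p = 0.0359) added at 12 h, Itga10 at 9 h (0.48, adjusted p = 0.00379) and Itga7 already at 6 h (0.47, adjusted p = 0.0291).

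At 24 h, 6 members were higher and 1 lower than at 0 h, beside 6.56% and 7.42% of all genes. At 48 h 5 were higher and 5 lower, beside 12.4% and 14.3%. The counts were largest at 96 h, with 10 higher and 5 lower, beside 15.5% and 17.1%. At 144 h 8 were higher and 3 lower, beside 13.5% and 14.9%. The count of 7 at 24 h was 4 without 0 h replicate 2 or 24 h replicate 1 or 2, and that of 15 at 96 h was 8 without 96 h replicate 2. Centred on 10 housekeeping genes, the counts became 8 higher and 0 lower at 24 h, 13 and 2 at 96 h, and 14 and 2 at 144 h. That centring moved the median of all genes by between 0.12 and 0.19 in these comparisons. The share of all genes called after it is not given here.

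**Figure D2:**
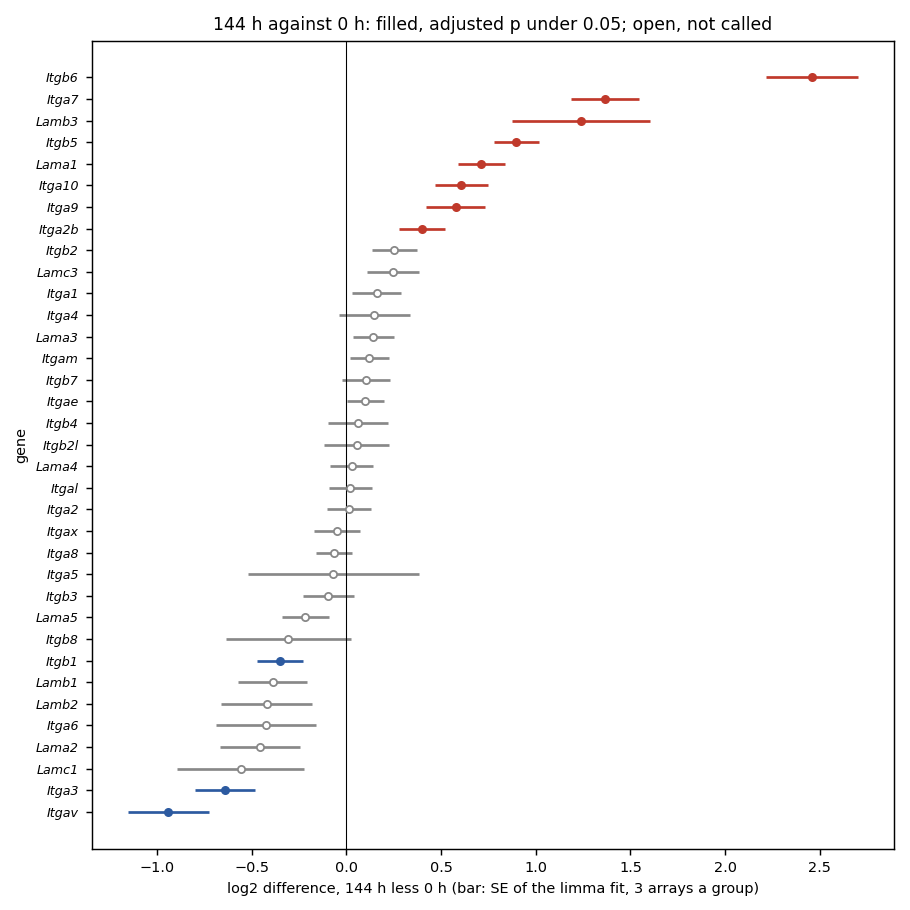
Log2 difference between 144 h and 0 h for the 35 genes, with bars of 1 SE from the limma fit (3 arrays a group); filled points passed an adjusted p of 0.05. The 8 genes above run from Itgb6 at 2.46 to Itga2b at 0.40, and the 3 below are Itgb1, Itga3 and Itgav.

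Among the alpha chains that bind laminin, Itga7 rose in 2 stages. Its 3 arrays at 24 h before the change read 7.94, 8.23 and 7.87, and those at 0 h 9.29, 8.85 and 8.85. The groups did not overlap, and the difference was 0.99 (SE 0.18, adjusted p = 0.000122), before serum was lowered. The level was 9.18 at 3 h, reached 9.86 ± 0.23 (SD, n = 3) at 12 h, and read 10.44, 10.60 and 10.17 at 24 h. At 24 h it stood 1.40 above 0 h (SE 0.18, adjusted p = 4.05e-07). It then held: the arrays at 144 h read 10.40, 10.59 and 10.11, 2.58-fold above 0 h (log2 difference 1.37, SE 0.18, adjusted p = 1.05e-07). Each of these calls, and that at 12 h (0.86), was kept without any 1 array. The call at 9 h (0.72, adjusted p = 0.0297) was lost without 0 h replicate 2 or 3 or 9 h replicate 1 or 2, at adjusted p values of 0.0974 to 0.207.

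Itga6, an alpha chain of laminin receptors best known from epithelia, peaked at 24 h. Its arrays read 8.37, 7.74 and 7.85 at 24 h before the change and 7.47, 7.18 and 7.42 at 0 h, a difference of -0.63 without overlap (SE 0.26, adjusted p = 0.12). It passed with the mean of its probe sets (-0.69, adjusted p = 0.0445) and with only the arrays compared (0.0389). At 24 h they read 9.04, 8.47 and 8.82, all above every 0 h array, with a difference of 1.42 (SE 0.26, adjusted p = 0.000163). The arrays at 48 h read 8.10, 8.14 and 8.66, still 0.94 above 0 h (SE 0.26, adjusted p = 0.00579). By 144 h they were at 7.31, 6.80 and 6.68, and the difference from 0 h of -0.42 was not called (adjusted p = 0.255). The step down from 48 h to 96 h was -0.80 (adjusted p = 0.0781), and it passed with the replicate number as a block (adjusted p = 0.000328) and with the mean of probe sets (-0.86, 0.0234). The other Itga6 probe set gave 1.40 at 24 h and -0.39 at 144 h.

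Itga3, another laminin receptor chain, fell late. Its arrays lay close together at 0 h, at 7.33, 7.36 and 7.31, and at 96 h, at 6.52, 6.49 and 6.51. The difference at 96 h was -0.82 (SE 0.16, adjusted p = 8.15e-05), at 48 h -0.76 and at 144 h -0.64. All 3 probe sets of Itga3 were lower at 144 h, by 0.72, 0.64 and 0.56. At 24 h the arrays (6.91, 7.07 and 6.79) were already below every 0 h array, and the difference of -0.41 had an adjusted p of 0.0804, of 0.0359 with the block and of 0.0254 with only the arrays compared.

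**Figure D3:**
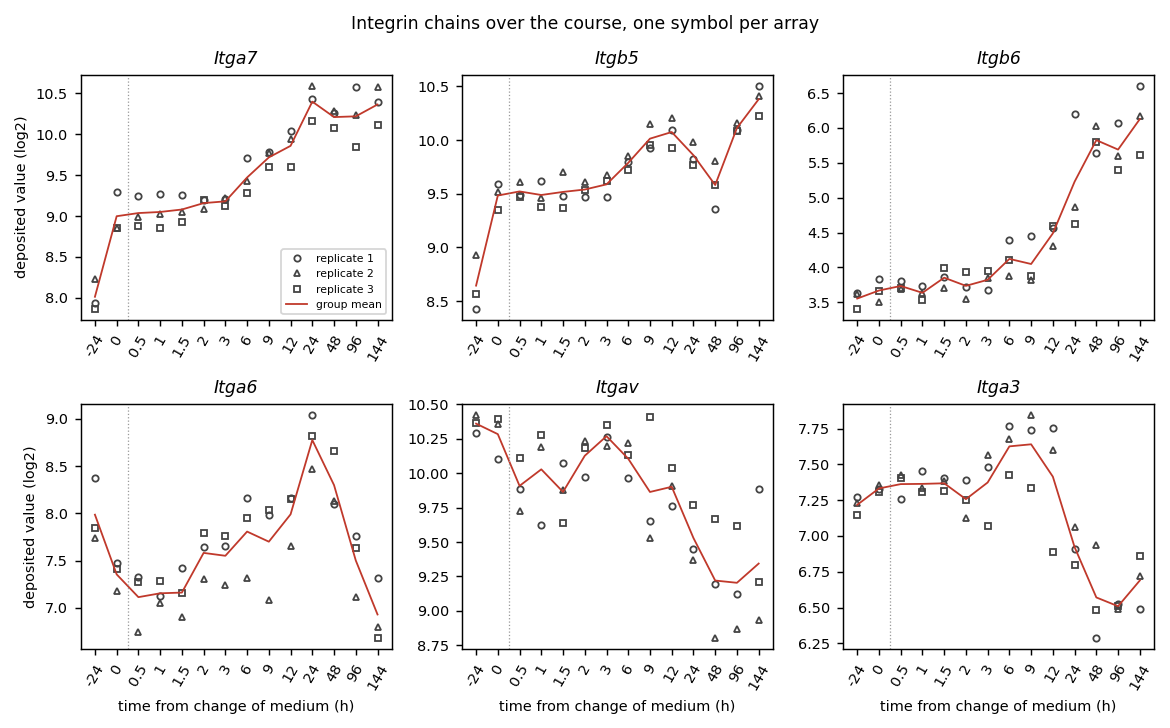
Deposited log2 values of 6 integrin chains by time in hours (14 groups without cycloheximide, evenly spaced), with 1 symbol per array by replicate number and a line through the group means; the dotted line marks the change of medium. Itga7 and Itgb5 rise before and after it, Itgb6 by 12 h and beyond, Itga6 peaks at 24 h, and Itgav and Itga3 are lower from 24 h.

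Of the chains that bind fibronectin, vitronectin and latent TGF-beta, Itgav, the alpha partner of Itgb5, Itgb6 and Itgb8, fell. Its arrays read 10.10, 10.36 and 10.40 at 0 h and 9.19, 8.80 and 9.67 at 48 h. The difference was -1.06 at 48 h (SE 0.21, adjusted p = 0.000182), -1.08 at 96 h (adjusted p = 0.000109) and -0.94 at 144 h (adjusted p = 0.000614), where the arrays read 9.89, 8.94 and 9.21. The fall at 24 h (-0.75, adjusted p = 0.0133) was lost without 0 h replicate 2 or 3 or 24 h replicate 1 or 2 (adjusted p 0.0515 to 0.0671), and when centred on housekeeping genes (-0.61, adjusted p = 0.0575). The Itgav probe set used averaged 9.90 over the 48 arrays and the other 4 between 2.89 and 5.00. The brightest of those was lower by 0.48 at 144 h, and the 3 others differed from 0 h by 0.01 to 0.18.

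Itgb6, a beta chain known from epithelia that pairs only with Itgav, had the largest change of any member. It lay at the low end of the array at 0 h, at 3.83, 3.51 and 3.67, and at 4.56, 4.31 and 4.59 at 12 h. The 24 h arrays spread widely, at 6.20, 4.86 and 4.63, with replicate 1 far above the other two. At 144 h they read 6.61, 6.16 and 5.61, which is 5.49-fold above 0 h (log2 difference 2.46, SE 0.24, adjusted p = 1.81e-10). The differences at 24, 48 and 96 h were 1.56, 2.16 and 2.02, and all 4 calls were kept without any 1 array. At 24 h the difference ran from 1.08 to 1.86 as single arrays were left out. The weaker second probe set of Itgb6 was 1.40 higher at 144 h (SE 0.14). At 12 h the difference of 0.82 had an adjusted p of 0.0571; it passed with the block and with only the arrays compared (0.0186), without dim genes (0.0441) and when centred on housekeeping genes (0.92, 0.0384). Of 7 epithelial markers 5 stayed under 5 in every group. The log2 of the summed signal of all 7 was 7.86 at 0 h and 7.85 at 144 h; Cdh1 read 3.13 and 3.55, Krt14 5.80 and 5.62, and Epcam 6.66 and 6.61. Their part in the rise of Itgb6 was not tested.

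Itgb5, the vitronectin receptor beta chain that pairs only with Itgav, was already changing in growth medium. It read 8.43, 8.93 and 8.57 at 24 h before the change and 9.59, 9.51 and 9.34 at 0 h, a rise of 0.84 (SE 0.12, adjusted p = 2.97e-06) with no overlap. It peaked at 12 h (10.09, 10.20 and 9.93; 0.59 above 0 h, adjusted p = 0.00305), came back to 9.35, 9.80 and 9.59 at 48 h, and rose again to 10.51, 10.41 and 10.22 at 144 h. The 48 h level differed from 0 h by 0.10 (SE 0.12), and the 144 h level by 0.90 (SE 0.12, adjusted p = 1.46e-07). The late rise passed as a step of its own from 48 h to 96 h (0.53, adjusted p = 0.00411; 0.0736 without 48 h replicate 1). All 4 Itgb5 probe sets were higher at 144 h, by 0.68 to 1.00. The calls at 9 h (0.53) and 24 h (0.38) were less firm. The first was lost without 0 h replicate 2 or 3 or 9 h replicate 2 (adjusted p 0.0583 to 0.12), and the second without 0 h replicate 2 or 3 or 24 h replicate 1 or 2 (adjusted p 0.0612 to 0.165) and with the probe set not of the _a_at kind (0.21, adjusted p = 0.24).

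Itgb1, the common beta chain, fell by less than the chains above. Its arrays read 10.15, 10.15 and 10.22 at 0 h, 9.54, 9.56 and 9.92 at 48 h, and 10.19, 9.65 and 9.61 at 144 h. At 48 h all 3 lay below 0 h, with a difference of -0.50 (SE 0.12, adjusted p = 0.00187) that no single array decided. At 144 h replicate 1 overlapped the 0 h arrays, and without it the difference was -0.54. The differences at 96 h (-0.37, adjusted p = 0.017) and 144 h (-0.35, adjusted p = 0.0256) were lost when centred on housekeeping genes (adjusted p 0.21 and 0.362) and with the mean of the 6 Itgb1 probe sets (0.207 and 0.173). They were also lost without 0 h replicate 3, 96 h replicate 1 or 96 h replicate 2 for the former (adjusted p 0.0602 to 0.0807), and without 0 h replicate 2 or 3 or 144 h replicate 2 or 3 for the latter (0.05 to 0.198). At 24 h the difference of -0.35 had an adjusted p of 0.051. It passed with the block (0.0385), without dim genes (0.0427), with only the arrays compared (0.0314) and with the probe set not of a shared kind (-0.37, 0.0392).

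Itga5, the fibronectin receptor alpha chain, showed no called change in low serum. Its arrays read 7.31, 6.76 and 6.01 at 0 h and 6.84, 6.90 and 6.13 at 144 h, and the difference was -0.07 (SE 0.45, adjusted p = 0.94). The spread followed the replicate number: replicate 1 was the highest of its group in 15 of 16 groups, and the means over the 16 groups were 7.41, 6.81 and 6.30 for numbers 1, 2 and 3. The SE of Itga5, 0.45, is therefore wide beside the 0.12 of Itgb5.

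The remaining integrin chains with a call had group means under 7 and changed by less than 1, up or down. Itga10, an alpha chain of collagen receptors, rose from 3.25, 3.53 and 3.37 at 0 h to 4.04, 4.32 and 4.52 at 96 h (0.91, SE 0.14, adjusted p = 1.97e-06) and stood 0.61 above 0 h at 144 h. Its earlier calls of 0.57 at 12 h, 0.49 at 24 h and 0.42 at 48 h were each lost without some arrays. These were 0 h replicate 1 or 3 or 12 h replicate 3 (adjusted p 0.0584 to 0.153), 0 h replicate 1 or 24 h replicate 3 (0.0706 to 0.086), and 0 h replicate 1 or 3 or 48 h replicate 2 or 3 (0.0538 to 0.0938). Itga9, which binds tenascin and Vcam1, read 4.30, 4.14 and 3.91 at 0 h and 4.69, 4.70 and 4.69 at 144 h, a rise of 0.58 (SE 0.16, adjusted p = 0.00418). Its call at 96 h (0.49) was lost without 0 h replicate 3 or 96 h replicate 2 or 3 (adjusted p 0.0658 to 0.106).

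Itga2b, the platelet fibrinogen receptor chain, rose by 0.35 at 96 h and 0.40 at 144 h (adjusted p = 0.0225 and 0.00968). Both calls were lost without 0 h replicate 3, and the former also without 96 h replicate 2 (adjusted p 0.0919 to 0.157). Its partner Itgb3 had no call; when centred on housekeeping genes it was 0.40 higher at 24 h (adjusted p = 0.0373). Of the 4 platelet markers measured 3 stayed under 5 in every group. Itgb2, the leukocyte beta chain, rose by 0.34 at 24 h and 0.31 at 96 h from a 0 h mean of 3.11. The former was lost without any 1 of the 6 arrays (adjusted p 0.0609 to 0.196), and the latter without 0 h replicate 1 or 3 or 96 h replicate 1 or 2 (0.063 to 0.208), and both after a new quantile normalization (0.0668 and 0.0671). The lymphocyte chain Itgb7 (0.32) and the Itgav partner Itgb8 (-0.87) were called at 96 h alone. The first overlapped between groups and was lost without 0 h replicate 1 or 2 or 96 h replicate 2 (adjusted p 0.0957 to 0.517, the difference 0.13 without 96 h replicate 2) and with trend and robust moderation (0.0642). The second was lost without 0 h replicate 2 or 3 or 96 h replicate 2 or 3 (0.0507 to 0.212) and when centred on housekeeping genes (0.0845). The log2 of the summed signal of the leukocyte markers was 7.92 at 0 h and 7.72 at 144 h, and that of the platelet markers 6.05 and 5.96; their part in these small differences was not tested.

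In the laminins, the muscle alpha chain Lama2 rose before the change of medium and fell after it. Its arrays read 5.90, 6.71 and 6.59 at 24 h before and 7.81, 7.38 and 7.58 at 0 h. With no overlap, the difference was 1.19 (SE 0.21, adjusted p = 7.86e-05), or 2.28-fold, the largest of the 4 members that rose over this day in growth medium. The other three were Itga7, Itgb5 and Lama5, and none was called lower, beside 7.26% of all genes higher and 5.86% lower. Lamb3 and Itga6 were lower at 0 h without overlap (-0.93 and -0.63), at adjusted p values of 0.0946 and 0.12, and passed with only the arrays compared (0.00744 and 0.0389). At 48 h Lama2 read 7.01, 6.36 and 7.03, a difference of -0.79 from 0 h (SE 0.21, adjusted p = 0.00404) that was lost without 48 h replicate 2 (-0.57, adjusted p = 0.0694). At 96 h (7.38, 6.32 and 7.09) the groups overlapped and the difference of -0.66 was lost without 0 h replicate 1 or 96 h replicate 2 (adjusted p 0.0764 to 0.244, the difference -0.36 without the latter) and when centred on housekeeping genes (0.0758). It was -0.46 and not called at 144 h (7.45, 6.92 and 7.02).

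Lamb3, the beta chain of an epithelial laminin of the skin, was lowest at 24 h and rose late. It read 7.70, 7.47 and 7.28 at 24 h before the change, 6.60, 6.83 and 6.25 at 0 h, 5.52, 5.62 and 5.87 at 24 h, and 7.61, 7.83 and 7.96 at 144 h. The fall to 24 h (-0.89, SE 0.36) had an adjusted p of 0.101, of 0.0256 with the block and of 0.00617 with only the arrays compared. The rise at 96 h was 1.27 above 0 h (SE 0.36, adjusted p = 0.00603), and that at 144 h 1.24 (adjusted p = 0.00802; 0.0501 without 0 h replicate 3). Its levels at 24 h before the change and at 144 h overlapped. Krt14, the 1 epithelial marker besides Epcam that was not low, had a group mean of 7.11 on the day before the change and of 5.80 at 0 h. Its mean was 5.28 at 24 h, then 6.05 at 96 h and 5.62 at 144 h. Epcam went the other way, with means of 6.36 at 24 h before the change, 6.66 at 0 h and 6.82 at 24 h. Its means were 6.74 at 96 h and 6.61 at 144 h. The log2 of the summed signal of the 7 epithelial markers was highest at 24 h before the change, at 8.23. Their part in the Lamb3 values was not tested. Its laminin alpha partner Lama3 stayed under 5 in every group.

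Among steps between successive late times, 3 of 35 members were called in at least 1 step, beside 8.68% of all genes. Lamb3 was the one member called from 24 h to 48 h (1.26, SE 0.36, adjusted p = 0.0403), beside 3.89% of all genes, and the call was lost without any 24 h array or 48 h replicate 1 or 3 (adjusted p 0.0626 to 0.28). From 48 h to 96 h, beside 4.64% of all genes, Itgb5 and Itga10 were called; that of Itga10 (0.49) was lost without 48 h replicate 1 or 3 or 96 h replicate 2 or 3 (0.066 to 0.181). None was called in limma from 12 h to 24 h or from 96 h to 144 h, beside 1.34% and 0.313% of all genes. In these steps 6 and 3 members had an unadjusted p under 0.05. With the block, for which no share of all genes is given here, 9 members were called in at least 1 step. From 12 h to 24 h these were Itga6 (0.79), Itga7 (0.54), Itgb6 (0.74), Itga3 (-0.49) and Lamb2 (-0.50), at adjusted p values of 0.00076 to 0.0489. Lama5 was added from 24 h to 48 h (-0.32, adjusted p = 0.0154). Without the block, the count of 3 fell to 0 without 48 h replicate 1 and to 1 without 48 h replicate 3.

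**Figure D4:**
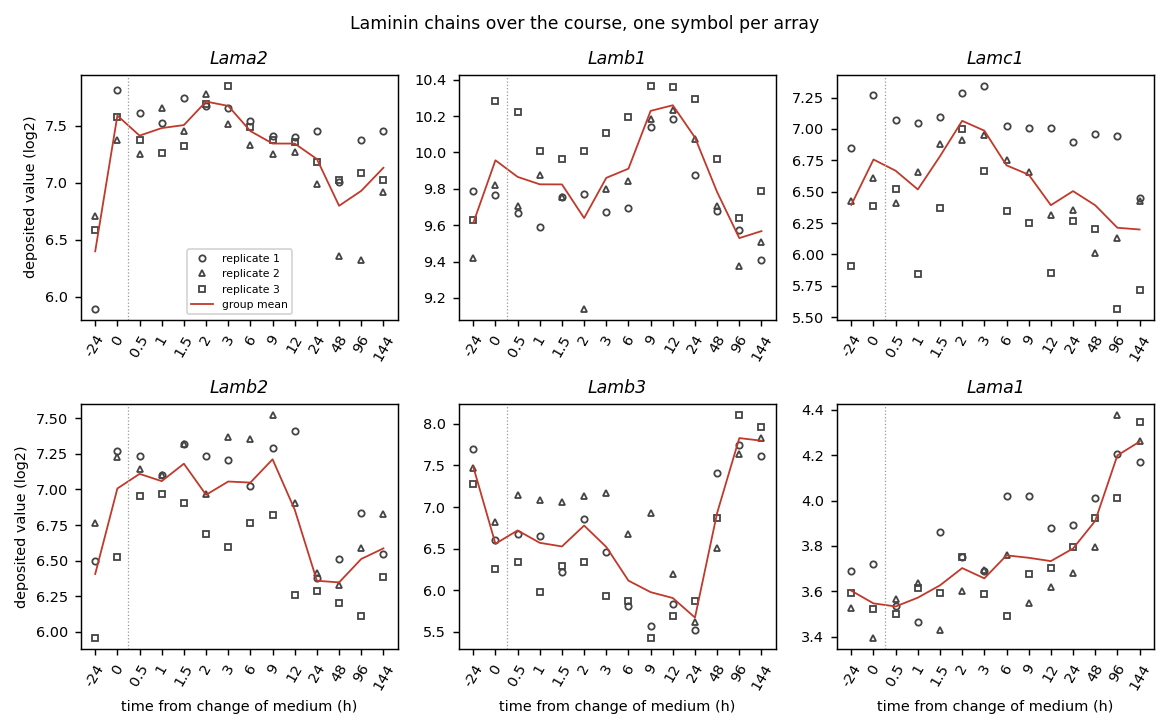
Deposited log2 values of 6 laminin chains by time in hours (14 groups without cycloheximide, evenly spaced), with 1 symbol per array by replicate number and a line through the group means; the dotted line marks the change of medium. Lama2 is lowest 24 h before it, Lamb3 is lowest at 24 h and highest at 96 h, and the Lamc1 symbols lie apart by replicate number.

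The chains that most laminins share, Lamb1 and Lamc1, gave no call against 0 h or in the late steps without the block. Lamb1 did vary over 0 h and the 12 later times by the F-test (adjusted p = 0.0143). Lamb1 read 9.77, 9.82 and 10.28 at 0 h, 10.19, 10.23 and 10.36 at 12 h, and 9.41, 9.51 and 9.79 at 144 h. Lamc1 read 7.27, 6.61 and 6.39 at 0 h and 6.45, 6.43 and 5.72 at 144 h, and its values, like those of Itga5, followed the replicate number (means 7.07, 6.60 and 6.29 over the 16 groups). At 96 h, where the same-numbered arrays deviated together, the block gave differences of -0.43 for Lamb1 (adjusted p = 0.00287) and -0.54 for Lamc1 (adjusted p = 0.00409), against adjusted p values of 0.0685 and 0.22 without it. Lamb2, the beta chain found at the neuromuscular junction, differed by -0.49 there (adjusted p = 0.00481 with the block, 0.116 without), and Lama5 by -0.24 (0.0281 against 0.138). With the block, 19 members were called at 96 h instead of 15. The share of all genes called at 96 h with the block is not given here.

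Lamb2 fell at 48 h, from 7.27, 7.22 and 6.53 to 6.51, 6.33 and 6.20 (-0.66, SE 0.24, adjusted p = 0.0386). That call was lost without 0 h replicate 1 or 2 or 48 h replicate 2 or 3 (adjusted p 0.0951 to 0.162), after a new quantile normalization (0.0734) and when centred on housekeeping genes (0.0672). At 24 h the difference of -0.65 had an adjusted p of 0.0676, of 0.00083 with the block and of 0.0446 with only the arrays compared. With the block 11 members instead of 7 were called at 24 h, adding Itga3, Itgb1, Lamb2 and Lamb3, with no share of all genes given for it. Lama5, a widely expressed alpha chain, rose by 0.46 over the day in growth medium (adjusted p = 0.00731), a call lost without 24 h before replicate 3 or 0 h replicate 1 (0.0515 to 0.0918).

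Lama1, an alpha chain of early embryonic basement membranes, stayed under 5 throughout but rose late. It read 3.72, 3.39 and 3.52 at 0 h, 4.21, 4.38 and 4.01 at 96 h, and 4.17, 4.26 and 4.35 at 144 h. The difference was 0.65 at 96 h (SE 0.12, adjusted p = 5.18e-05) and 0.71 at 144 h (adjusted p = 1.23e-05). At 48 h it was 0.36 (adjusted p = 0.0232), lost without 0 h replicate 2 or 3 or 48 h replicate 1 or 3 (0.0509 to 0.127) and after a new quantile normalization (0.0664). Lama4, of blood vessel and nerve basement membranes, read 3.26, 3.38 and 3.34 at 0 h and 3.44, 3.12 and 3.49 at 144 h, and was called in no comparison.

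In all, 19 of the 35 members (54.3%) had a highest group mean under 5, beside 42.3% of all genes. These were 10 alpha chains (Itga1, Itga2, Itga4, Itga8, Itga9, Itga10, Itgae, Itgal, Itgam and Itgax), 5 beta chains (Itgb2, Itgb2l, Itgb3, Itgb4 and Itgb8) and the laminin chains Lama1, Lama3, Lama4 and Lamc3. At such levels a probe set may not follow its transcript. Itgal, Itgam, Itgax and Itgae are chains of white blood cells. Of the 11 members called at 144 h 3 belonged to this low set, and of the 15 at 96 h 5.

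Cycloheximide was compared with untreated cells of the same time, which asks which members differed under a drug that blocks protein synthesis. How far synthesis was blocked was not tested. If treated and untreated arrays were processed apart, an offset of a probe set from processing cannot be told apart from a difference with the drug. The drug was present from 1 h before the change of medium, with no treated group at 0 h, so a difference may date from before the change. At 1 h 4 members were higher and 0 lower (Itga3 0.47, Itga2b 0.39, Itgam 0.32 and Itga8 0.25), beside 24.2% and 0.418% of all genes. Because the treated arrays had higher medians, the median difference of all genes was itself 0.20, and that of the members 0.15. After quantile normalization of all arrays again, which moved the median gene by -0.22, none of the 4 passed and their differences were 0.02 to 0.17 (adjusted p 0.338 to 0.975). All 4 were also lost when centred on housekeeping genes, and each without 2 or more single arrays: Itga2b without 1 h replicate 2 or cycloheximide 1 h replicate 3, Itgam without 1 h replicate 1 or cycloheximide 1 h replicate 2 or 3, and Itga3 and Itga8 without any of the 6 but 1 h replicate 1 (adjusted p 0.0522 to 0.144). Without 1 h replicate 2 the count was 1, and without 1 h replicate 3 or any 1 treated array 2. These counts include Itga7, called without 1 h replicate 1 (0.57) or cycloheximide 1 h replicate 2 or 3 (0.59 and 0.58), and Itgb1, called without cycloheximide 1 h replicate 3 (0.39).

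At 3 h 5 members were higher and 1 lower with cycloheximide, beside 30.9% and 3.42% of all genes; the median difference was 0.14 for members and 0.19 for all genes. Itgb5 was the one that fell. Its arrays read 9.47, 9.68 and 9.62 untreated and 9.02, 9.31 and 8.84 treated, without overlap (-0.53, SE 0.12, adjusted p = 0.000595). The fall was -0.80 after a new quantile normalization (adjusted p = 2.06e-06). All 4 Itgb5 probe sets were lower, by 0.24 to 0.53, and the one not of a shared kind gave -0.24 (adjusted p = 0.096).

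At 1 h the treated Itgb5 arrays (9.65, 9.78 and 9.57) lay 0.18 above the untreated ones (9.62, 9.46 and 9.38; adjusted p = 0.28). The effect of cycloheximide on Itgb5 thus differed between 3 h and 1 h by -0.71 (SE 0.17, adjusted p = 0.00764), and Itgb5 was the 1 member called for this difference, beside 4.29% of all genes. The call was kept without any 1 of the 12 arrays and after a new quantile normalization (-0.76, adjusted p = 0.00323). Centred on housekeeping genes it was -0.48 (adjusted p = 0.0945), and there 1 member was called higher (Itga10, 0.71, adjusted p = 0.0284) and 0 lower. In a fit of the 12 arrays alone its adjusted p was 0.0577.

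**Figure D5:**
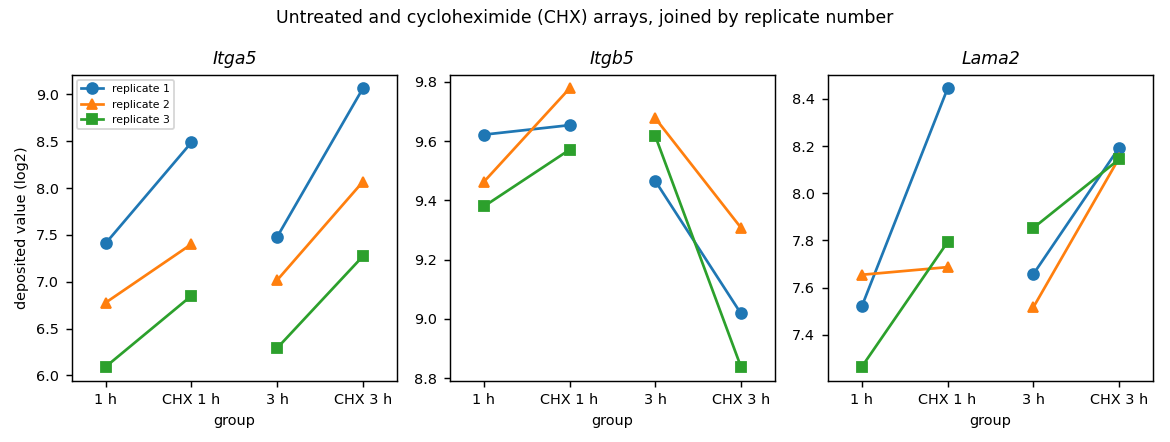
Deposited log2 values of Itga5, Itgb5 and Lama2 in untreated and cycloheximide-treated (CHX) cells at 1 h and 3 h, 1 point per array, with lines joining arrays of the same replicate number. Itga5 is higher with CHX on each line and Itgb5 lower at 3 h on each line.

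Itga5 had the largest difference at 3 h. Untreated arrays read 7.48, 7.02 and 6.29 and treated arrays 9.06, 8.07 and 7.27, a difference of 1.20 (SE 0.45, adjusted p = 0.0356) in groups that overlap. Replicate 1 was the highest and replicate 3 the lowest of both groups. Within replicate numbers 1, 2 and 3 the differences were 1.58, 1.05 and 0.98. The call was lost without 3 h replicate 2 or 3 or cycloheximide 3 h replicate 1 or 2 (adjusted p 0.0628 to 0.262, the difference 0.74 without cycloheximide 3 h replicate 1) and after a new quantile normalization (0.92, adjusted p = 0.126). With the replicate number as a block its adjusted p was 6.13e-08. The second Itga5 probe set was 0.98 higher (SE 0.26). At 1 h Itga5 was 0.82 higher (adjusted p = 0.184); the difference passed with the mean of probe sets (0.58, adjusted p = 0.0129) and with the probe set not of a shared kind (0.76, adjusted p = 0.0282). With the probe set used, it was 1.08, 0.62 and 0.76 within the replicate numbers. For Itgav the probe sets differed: the one used gave 0.04 at 1 h and -0.02 at 3 h, and the brightest of the others 0.91 and 0.77 (SE 0.20).

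The other 4 members higher at 3 h were all in the low set: Itga10 (0.56, adjusted p = 0.0017), Itgb2 (0.50, adjusted p = 0.00107), Itgax (0.37) and Itgam (0.34). Itga10 and Itgb2 passed again after a new quantile normalization (0.38 and 0.35), and Itgax and Itgam did not (adjusted p 0.16 and 0.153). With Lamb2 at -0.58 (adjusted p = 0.0488) added there, that normalization gave 2 members higher and 2 lower. Itgam was also lost without 3 h replicate 1 (adjusted p 0.10), and Itgax without 3 h replicate 1 or cycloheximide 3 h replicate 3 (0.0934 to 0.128). Lama2 read 7.66, 7.52 and 7.85 untreated and 8.19, 8.15 and 8.14 treated; the difference of 0.49 had an adjusted p of 0.0708, of 0.0369 with the replicate number as a block and of 0.0103 with only the arrays compared. The block also added Itga2b (0.28, adjusted p = 0.0464; 0.048 when centred on housekeeping genes) and Lama1 (0.27, adjusted p = 0.043), for 9 members in place of 6. No share of all genes is given here for the block or for the new normalization. The log2 of the summed signal of the leukocyte markers ran from 7.66 at 48 h to 8.20 with cycloheximide at 1 h, its highest value; its part in the differences of Itgam, Itgax and Itgb2 was not tested.

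The partners of integrins inside the cell moved in both directions over the course. Of 32 measured adaptor and focal adhesion genes, 4 rose over the day in growth medium (Fyn 0.71, Vcl 0.62, Parva 0.59 and Pxn 0.51) and none was called lower, beside 7.26% and 5.86% of all genes. Against 0 h, 6 were higher and 3 lower at 24 h, beside 6.56% and 7.42% of all genes, and 5 and 9 at 48 h, beside 12.4% and 14.3%. At 96 h the numbers were 9 and 10, beside 15.5% and 17.1%, and at 144 h 8 and 10, beside 13.5% and 14.9%. The largest change was that of Itgb1bp2 (melusin), a muscle protein that binds the tail of Itgb1. It rose from 3.98 at 0 h to 9.33 at 24 h and 10.79 at 144 h (log2 difference 6.81, SE 0.50, adjusted p = 7.95e-14). Nrap, an adaptor of muscle attachment sites, rose by 2.73 at 144 h, and Lims2 by 1.26, while Zyx, a focal adhesion protein, fell by 1.09. The median difference of the list at 144 h was -0.04, beside 0.04 for all genes. With cycloheximide 3 of the 32 were higher and 0 lower at 1 h, and 12 and 2 at 3 h, led by Bcar1 (1.85, adjusted p = 3.96e-13). Of all genes 24.2% were higher and 0.418% lower at 1 h, and 30.9% and 3.42% at 3 h.

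Of 10 measured basement membrane partners and other laminin receptors, 5 rose over the day in growth medium together with Lama2 and Lama5: Nid2 (1.89, adjusted p = 8.75e-10), Col4a2 (0.91), Col4a1 (0.84), Hspg2 and Dag1. Of all genes 7.26% rose. Nid1 and Nid2 link laminin to collagen IV, Hspg2 is perlecan, and Dag1 is dystroglycan, the laminin receptor of the dystrophin complex. The list's median over that day was 0.53, beside 0.01 for all genes. At 24 h 3 were higher and 1 lower than at 0 h, beside 6.56% and 7.42% of all genes. At 48, 96 and 144 h 2 were higher and 2 lower, beside 12.4% to 15.5% and 14.3% to 17.1% of all genes. At 144 h Dag1 was higher by 1.18 (SE 0.12, adjusted p = 8.34e-10) and Bcam, a receptor for laminins with Lama5, by 1.43, while Nid1 fell by 1.52 and Nid2 by 0.87. With cycloheximide 1 was higher at 1 h, and 3 were higher and 1 lower at 3 h (beside 30.9% and 3.42% of all genes), Sdc4 with 1.58 the furthest.

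Of 16 other integrin ligands, 3 rose and 1 fell over the day in growth medium, beside 7.26% and 5.86% of all genes. Against 0 h, 1 was higher and 2 were lower at 24 h (6.56% and 7.42% of all genes), 4 and 6 at 48 h (12.4% and 14.3%), 3 and 4 at 96 h (15.5% and 17.1%), and 3 and 2 at 144 h (13.5% and 14.9%). Postn (periostin, a ligand of Itgav receptors) rose by 2.47 at 144 h (SE 0.35, adjusted p = 3.51e-07), and Tnc (tenascin C, a ligand of Itga9) by 1.91 (SE 0.18, adjusted p = 7.28e-11). Vcam1, which binds Itga4 and Itga9, rose by 1.17 in growth medium and fell by 1.25 from 0 h to 144 h. With cycloheximide 2 were higher at 1 h, beside 24.2% of all genes, and 6 were higher and 2 lower at 3 h, beside 30.9% and 3.42%. Ccn2, a matrix protein that binds integrins, was 2.88 higher at 3 h (SE 0.24, adjusted p = 2.91e-12), 7.34-fold.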

How the data were processed

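RNA was measured on 48 arrays in 16 groups of 3, set by the labels. The authors deposited log2 values made with RMA, per the submitters' processing notes; RMA corrects background, normalizes between arrays and summarises probes. Its version, and whether the cycloheximide arrays were processed with the others, are not given in the sources used here. Array means ran from 5.24 to 5.26 on the cycloheximide arrays and from 5.02 to 5.05 on the others. A difference in processing between them was not tested. The number of arrays limits the precision.

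Gene names came from the platform's annotation, which can be old. Of 45101 probe sets, 34945 had exactly 1 symbol and were not controls; these stand for 18193 genes. Where a gene had several, the one with the highest mean was used, and 7 of the 35 members have one ending in _s_at, _x_at or _a_at, which may share sequence with other transcripts.

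The test was that of limma 3.58.1 (R 4.3.3), with 1 coefficient per group over all 48 arrays (32 residual degrees of freedom), eBayes at default settings, two-sided tests and Benjamini-Hochberg adjustment over the 18193 genes within each comparison. A gene was called at an adjusted p under 0.05. The code was tested on simulated data. In each comparison the called members are named (at most 10 a direction), with values per array for members with at least a 2-fold change and for Itgb1, Itga7, Itga5, Itgav, Lama2, Lama4, Lamb1 and Lamc1, and at most 4 genes of each partner list. Exceptions are the uncalled members given for a blocked fit. The members and lists were chosen with earlier results of these data known.

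Same-numbered arrays were compared by the correlation of their deviations from the group means. Only genes whose highest group mean was at least the median of all values, 4.08, were used for it. In 14 of 19 comparisons every pair was over 0.1 (range over all -0.251 to 0.77), and these are described here as paired. The main fit did not use this pairing, which entered only the alternative with the replicate block. An SE or a missing call of the main fit in a paired comparison is to be read with that limit. They were not so for 0 h against 24 h before, 1 h and 144 h against 0 h, 144 h against 96 h, and cycloheximide at 1 h. The labels do not tie a number to a passage. Alternatives were a new quantile normalization, centring on 10 housekeeping genes, the mean of a gene's probe sets, leaving out shared-kind probe sets or dim genes, trend and robust moderation, the replicate block, only the arrays compared, and leaving out each array. Promoter sequences came from RefSeq, GRCm38.p6, matched by symbol.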

Additional observations from a re-analysis of the deposited data

Results flagged for a closer look

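The effect of cycloheximide on Itgb5 differed between its 2 times: the difference of the treated and untreated levels was lower at 3 h than at 1 h (value -0.71 on the log2 scale, SE 0.17, adjusted p = 0.00764 by limma). At 1 h the treated mean lay 0.18 above the untreated one, where the median of all genes was 0.20 higher, and at 3 h the difference was -0.53. The value did not pass when centred on housekeeping genes (-0.48, adjusted p = 0.0945) or with the 12 arrays alone (adjusted p = 0.0577).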

How the results depend on the processing

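No member's call changed sign under any alternative run. Of the 66 calls of members, 11 were lost after a new quantile normalization, 11 when centred on housekeeping genes, 4 with the mean of probe sets, 1 with trend and robust moderation, 18 when only the arrays compared were fitted, 0 with the replicate block, and 32 in at least 1 leave-one-out fit. Without shared-kind probe sets 3 of the 56 calls that could be tested were lost (10 had no other probe set), and without dim genes 0 of 59 (7 were dim). With the replicate block, the number of members called was 8 in place of 4 for 0 h against 24 h before, 11 in place of 7 at 24 h, 8 in place of 4 for cycloheximide at 1 h, 2 in place of 1 for the difference of its effects, 6 in place of 3 for 0.5 h to 12 h and 9 in place of 3 for the late steps. Where the numbers did not pair the arrays, the block's added calls were Itga6 (-0.63), Lamb1 (0.34), Lamb2 (0.60) and Lamb3 (-0.93) before the change, Itga6 (-0.42), Lamb1 (-0.39), Lamb2 (-0.42) and Lamc1 (-0.56) at 144 h, and Itga5 (0.82), Itga7 (0.46), Itgb2 (0.30) and Lama2 (0.49) with cycloheximide at 1 h. Fitting only the arrays compared gave 11 at 24 h, 1 for cycloheximide at 1 h and 0 for the difference. For cycloheximide at 1 h the count was 0 after a new quantile normalization, 0 when centred on housekeeping genes, 10 with the mean of probe sets and 2 without dim genes; at 3 h it was 3 without dim genes. Leaving out 1 array gave 4 to 5 members at 24 h, 8 to 15 at 96 h (8 without 96 h replicate 2), 1 to 4 for cycloheximide at 1 h (1 without 1 h replicate 2) and 0 to 4 for the late steps (0 without 48 h replicate 1). The block ended no call. Shares of all genes called are those of the main fit, and not of these alternatives. The cause of these shifts was not tested. A low signal limits the 19 members under 5.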
